A study of Mus musculus with 6 samples.

Results

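The genes described here encode the translation initiation factors (eIF) and elongation factors (eEF) of the mouse, which bring ribosomes to mRNA, choose the start codon and move the ribosome along the message. All protein-coding genes were taken whose symbol begins with Eif or Eef followed by a digit and that stand in both deposited expression tables. The rule gave 65 of the 14082 genes that the tables share, and it used names and not expression values. It includes genes that act on the factors, such as kinases of eIF2 and methyltransferases of eEF1A, and it leaves out factors with other names, such as the poly(A)-binding proteins.

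RNA was measured by poly(A) RNA-seq in 6 libraries of NE-4C, a mouse neural stem cell line without p53, with 2 libraries in each of 3 groups. In all 3 groups H3f3a, one of the genes for the histone variant H3.3, was knocked out and an HA-tagged H3.3 was stably expressed. H3.3K27M cells express the tagged protein with lysine 27 replaced by methionine. Cbfa2t2_KO cells lack in addition the corepressor gene Cbfa2t2 and express tagged wild-type H3.3, and H3.3WT cells express tagged wild-type H3.3 without the Cbfa2t2 knockout. Neither single cloning of a line nor separate culture of its libraries is stated in the labels, which call the second library of each group a repeat. The p-values therefore rest on the spread between repeats that may be technical. The H3.3WT libraries serve as the controls of both lines, so the changes of the lines against H3.3WT are not independent of each other.

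As background, translation begins when eIF2, a complex of 3 subunits, brings the initiator tRNA to the small ribosomal subunit in its GTP-bound form. The exchange factor eIF2B, with 5 subunits, recharges eIF2 with GTP after each round, and stress kinases that phosphorylate the alpha subunit of eIF2 block that step. The cap is bound by eIF4E, which joins the scaffold eIF4G and the helicase eIF4A in eIF4F unless a 4E-BP protein holds it. The large scaffold eIF3 links mRNA and ribosome, eIF1, eIF1A and eIF5 set the start codon, eEF1A delivers aminoacyl-tRNA and eEF2 moves the ribosome one codon on.

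The sequences around the start sites of genes on which the results turn are shown first. The subunit genes of eIF2B moved in opposite directions, and Eif3f and Eef2 were the genes with the letters TATAAA in the window. Each runs from 100 bases before to 20 bases after the RefSeq transcription start, 5′ to 3′ along the gene, in the build GRCm38.p6. Where several starts were listed, as for 7 genes of the set, the first listed was used. The start used for Eif2b4, at 31193139, lies inside the GENCODE gene, which extends to 31193430. In the eIF2B genes the capitals mark the ETS core CCGGAA or, on the other strand, TTCCGG. In Eif3f and Eef2 they mark the E-box CACGTG and the letters TATAAA, those of a TATA box, wherever they stand in the window.
Eif2b1 (chr5:124579112-124579231, reverse strand): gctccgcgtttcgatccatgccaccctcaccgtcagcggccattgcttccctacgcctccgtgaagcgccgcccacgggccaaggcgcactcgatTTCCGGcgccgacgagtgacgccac
Eif2b2 (chr12:85219381-85219500, forward strand): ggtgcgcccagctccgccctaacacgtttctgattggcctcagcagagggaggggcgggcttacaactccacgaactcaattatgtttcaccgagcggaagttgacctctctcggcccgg
Eif2b4 (chr5:31193120-31193239, reverse strand): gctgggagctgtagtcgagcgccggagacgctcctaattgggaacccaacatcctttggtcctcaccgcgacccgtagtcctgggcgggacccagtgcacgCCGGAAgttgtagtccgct
Eif2b5 (chr16:20498717-20498836, forward strand): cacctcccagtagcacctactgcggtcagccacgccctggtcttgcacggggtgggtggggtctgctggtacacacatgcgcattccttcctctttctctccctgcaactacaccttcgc
Eif3f (chr7:108934315-108934434, forward strand): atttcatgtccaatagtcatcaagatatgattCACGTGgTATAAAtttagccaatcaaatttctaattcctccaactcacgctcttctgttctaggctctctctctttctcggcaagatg
Eef2 (chr10:81176531-81176650, forward strand): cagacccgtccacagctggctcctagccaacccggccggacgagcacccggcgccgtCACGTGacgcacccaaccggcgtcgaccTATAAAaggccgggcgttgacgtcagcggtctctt
The windows of Eif2b1 and Eif2b4 hold 1 ETS core of these exact letters each, and those of Eif2b2 and Eif2b5 hold none. Shorter forms were not searched, and the Eif2b2 window holds cggaa, the core without its first letter. The remaining subunit gene, Eif2b3, is named only. Of the 65 genes, 51 were in the RefSeq promoter table, and on both strands 14 of their windows (27.5%) held the ETS core, against 9.38% of the windows of all 27025 genes of the table, of every gene type. The E-box was in 8 windows (15.7%, against 3.79% of all), the CRE core TGACGT in 5 (9.8%, against 4.95%) and the letters GCATGC in 4 (7.84%, against 4.06%). CCAAT was in 11 windows (21.6%, against 21.5%), and TATAAA was in those of Eef2 and Eif3f alone (3.92%, against 6.46%). In Eif3f the E-box and TATAAA are separated by a single base. These matches describe letters and not binding, and their distance from the start was not taken into account.

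Gene positions are those of the GENCODE vM21 annotation in the build GRCm38. The values are FPKM, read fragments scaled by transcript length and by the size of the library, so levels can be set beside each other between genes. Log2 changes are of FPKM + 1, with their standard error, from limma with Benjamini-Hochberg adjustment over all genes tested, and a change was called at an adjusted p under 0.05. Sequencing depth is unknown, since counts were not part of the tables. Within a group the log2 values of the 14082 genes had a Pearson correlation of 0.984 to 0.988 between libraries, and between H3.3K27M or Cbfa2t2_KO and H3.3WT libraries 0.945 to 0.957. Between H3.3K27M and Cbfa2t2_KO libraries it was 0.967 to 0.978, so the lines were closer to each other than to H3.3WT. Of 10 neural stem and progenitor markers, 8 were in both tables and 6 averaged at least 1 FPKM, with Fabp7 and Sox1 not listed and Pax6 under 1 FPKM in every library. Their summed level was 104 and 112 FPKM in H3.3K27M, 86.2 and 76.4 FPKM in Cbfa2t2_KO, and 110.4 and 123 FPKM in H3.3WT. Of 3 single markers, not tested here, Nes and Vim did not follow that sum, while Sox2 was, like the sum, lowest in Cbfa2t2_KO. Nes stood at 16.8 and 14.3 FPKM in H3.3K27M, 23.97 and 18.1 FPKM in Cbfa2t2_KO, and 35.2 and 38.8 FPKM in H3.3WT, Vim at 34.6 and 41.8 FPKM in H3.3K27M, 27.3 and 26.5 FPKM in Cbfa2t2_KO, and 10.3 and 12.1 FPKM in H3.3WT, and Sox2 at 28.1 and 32.2 FPKM in H3.3K27M, 12.3 and 9.55 FPKM in Cbfa2t2_KO, and 30.9 and 34.4 FPKM in H3.3WT. The 4 listed of 7 neuronal markers summed to 76.8 and 81.5 FPKM in H3.3K27M, 135 and 152 FPKM in Cbfa2t2_KO, and 77.9 and 76.7 FPKM in H3.3WT, with Dcx, Map2 and Snap25 not listed. None of 5 microglial and leukocyte markers was listed, and 1 of 4 endothelial, 2 of 5 astrocyte and 2 of 6 oligodendrocyte markers were. The part of these marker differences in the results below was not tested, and in bulk RNA fewer cells of a type and less RNA per cell cannot be told apart. H3f3a, knocked out in every group, was listed at 77.3 and 66.8 FPKM in H3.3K27M, 82.1 and 66.3 FPKM in Cbfa2t2_KO, and 131 and 181 FPKM in H3.3WT, and whether reads of the tagged copy are counted in it was not tested. Cbfa2t2 stood at 2.02 and 0.855 FPKM in H3.3K27M, 1.02 and 0.769 FPKM in Cbfa2t2_KO, and 1.38 and 1.35 FPKM in H3.3WT, so the second H3.3K27M library lay within the range of the knockout libraries.

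The summed FPKM of the translation factor genes was largest in H3.3K27M, where a single gene, Eef1a1, also held its largest share of that sum. The 65 genes summed to 15701 and 16184 FPKM in H3.3K27M, 13430.0 and 13957 FPKM in Cbfa2t2_KO, and 11848 and 11226 FPKM in H3.3WT. As a share of the FPKM of all 14082 genes this was 4.23% and 3.88% in H3.3K27M, 3.58% and 3.55% in Cbfa2t2_KO, and 3.26% and 3.06% in H3.3WT, so the groups did not overlap. Eef1a1, which encodes eEF1A, gave 40.7% and 42.2% of the summed FPKM of the 65 genes in H3.3K27M, 30.9% and 27.9% in Cbfa2t2_KO, and 35.5% and 34.1% in H3.3WT. It stood at 6391 and 6828 FPKM in H3.3K27M and 4156 and 3891 FPKM in Cbfa2t2_KO, a difference that did not pass. The mean sum of the set differed between these groups by less than Eef1a1 alone did, so without Eef1a1 it was not higher in H3.3K27M. Abundant genes weigh most in such a sum, and Eef2 averaged 3098 FPKM in H3.3K27M and 3782 FPKM in Cbfa2t2_KO. Gene by gene, the median log2 difference of the 62 tested genes, H3.3K27M minus Cbfa2t2_KO, was 0.14, with 8 called higher and 0 lower. The median gene of the set stood at 33.3 and 38.2 FPKM in H3.3K27M, 36.8 and 35.8 FPKM in Cbfa2t2_KO, and 40.9 and 45.8 FPKM in H3.3WT.

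A filter of a mean of at least 1 FPKM left 63 of the 65 genes to test against H3.3WT in each line, without Eef1a2 and Eef1akmt3, and 62 between the lines, where Eif2ak2 also dropped out. In H3.3K27M, 10 genes rose and 8 fell against H3.3WT, and 45 did not pass, where 8.42% of all tested genes rose and 17.8% fell. In Cbfa2t2_KO, 12 rose and 15 fell against H3.3WT, and 36 did not pass, where 13.1% of all tested genes rose and 21.5% fell. In the direct comparison of H3.3K27M with Cbfa2t2_KO, 8 were higher and 0 lower, where 3.12% of all tested genes were higher and 4.68% lower. At an unadjusted p under 0.05 in the same limma fit, 19 of the 62 were higher and 5 lower in H3.3K27M than in Cbfa2t2_KO, where 1434 of all 11601 tested genes were higher and 1897 lower. The median log2 change of the tested genes was 0.07 in H3.3K27M and -0.11 in Cbfa2t2_KO against H3.3WT, where the median of all genes was -0.12 and -0.11. With the libraries scaled by the median of ratios, those medians of all genes moved to 0.0053 and -0.0027. Translation factor calls were then 12 higher and 3 lower in H3.3K27M and 15 higher and 15 lower in Cbfa2t2_KO, and calls of all genes were 1386 higher and 1424 lower in H3.3K27M and 2091 higher and 2044 lower in Cbfa2t2_KO, in place of 979 and 2070 in H3.3K27M and 1528 and 2500 in Cbfa2t2_KO. Groups did not overlap for 42 of 63 genes in H3.3K27M (66.3% of all tested genes) and for 51 of 63 in Cbfa2t2_KO (70.4%), and for 43 of 62 between the lines (58.2%). The shares of all tested genes that rose or fell also stand beside the counts by role below, and no role was tested as a set.

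**Figure D1:**
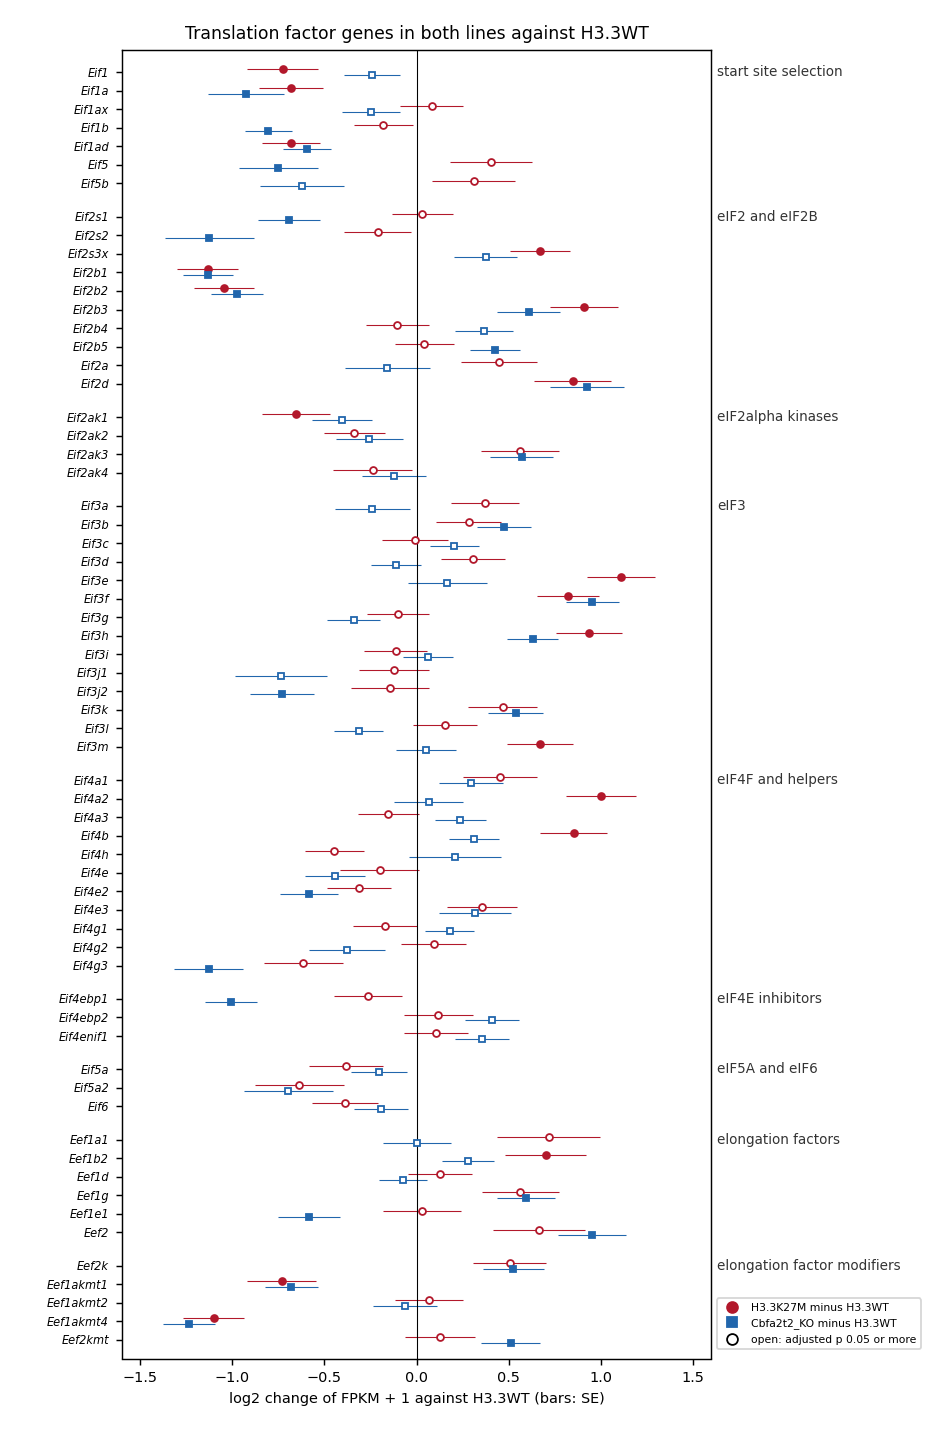
Log2 change of FPKM + 1 against H3.3WT for each tested translation factor gene, with the standard error as bars, for H3.3K27M (red circles) and Cbfa2t2_KO (blue squares), grouped by role; filled symbols have an adjusted p under 0.05. Eif2b1 and Eif2b2 lie near -1 in both lines while Eif2b3 lies above 0, and Eif5, Eif5b and Eif3a lie on opposite sides of 0 in the lines.

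Of the 10 genes of eIF2, eIF2B and the related tRNA carriers, 3 rose and 2 fell in H3.3K27M, and 3 rose and 4 fell in Cbfa2t2_KO. The subunits of eIF2B, the exchange factor for eIF2, did not move together. Transcripts of the alpha and beta subunits, which belong to its regulatory part, were lower in both lines than in H3.3WT, while those of the gamma subunit were higher. Eif2b1 (alpha; ENSMUSG00000029388, chromosome 5, 124570213 to 124579131, reverse strand) stood at 36.5 and 41.2 FPKM in H3.3K27M, 39.5 and 38.2 FPKM in Cbfa2t2_KO, and 81.6 and 91.3 FPKM in H3.3WT. It fell in H3.3K27M (-1.13 ± 0.17, adjusted p = 0.0032) and in Cbfa2t2_KO (-1.13 ± 0.13, adjusted p = 0.0012), to 0.449 and 0.45 of the H3.3WT mean. Eif2b2 (beta; ENSMUSG00000004788, chromosome 12, 85219481 to 85226628, forward strand) stood at 33.3 and 38.2 FPKM in H3.3K27M, 34.5 and 40.7 FPKM in Cbfa2t2_KO, and 74.99 and 74.3 FPKM in H3.3WT. Its level fell in H3.3K27M (-1.04 ± 0.16, adjusted p = 0.0041) and in Cbfa2t2_KO (-0.98 ± 0.14, adjusted p = 0.0022). For both genes the 4 libraries of the lines lay within a narrow band well under both H3.3WT libraries. Between H3.3K27M and Cbfa2t2_KO the difference was -0.0027 ± 0.15, adjusted p = 0.99 for Eif2b1 and -0.07 ± 0.15, adjusted p = 0.81 for Eif2b2. These falls were called in both lines under every alternative setting that was run, leaving out each library in turn included.

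Eif2b3, the gamma subunit, which pairs with epsilon in the catalytic part, was the least abundant subunit in every library. It stood at 7.12 and 7.62 FPKM in H3.3K27M, 5.51 and 6.09 FPKM in Cbfa2t2_KO, and 3.48 and 3.44 FPKM in H3.3WT. The gene rose in H3.3K27M (0.91 ± 0.18, adjusted p = 0.0095) and in Cbfa2t2_KO (0.61 ± 0.17, adjusted p = 0.027). In H3.3K27M it was not called without H3.3WT replicate 1 (adjusted p = 0.060) or 2 (adjusted p = 0.066). In Cbfa2t2_KO it was lost when any one of the 4 libraries was left out, at an adjusted p of 0.059 and 0.11 without Cbfa2t2_KO replicates 1 and 2, and 0.079 and 0.098 without H3.3WT replicates 1 and 2. Eif2b5, the catalytic epsilon subunit, stood at 60.2 and 60.9 FPKM in H3.3K27M, 75.99 and 82.7 FPKM in Cbfa2t2_KO, and 61.4 and 56.2 FPKM in H3.3WT. Both Cbfa2t2_KO libraries were above the other 4, and the rise was called against H3.3WT (0.43 ± 0.13, adjusted p = 0.041), but it was lost when any one library was left out (adjusted p = 0.082, 0.18, 0.072 and 0.17 without Cbfa2t2_KO replicates 1 and 2 and H3.3WT replicates 1 and 2). The rise was also lost with no filter on low values (0.051), without a variance trend (0.068) and after correcting each library for GC content, transcript length and exon number (0.074). In H3.3K27M its change was 0.04 ± 0.16, adjusted p = 0.87. Eif2b4, the delta subunit, had changes of -0.10 ± 0.17, adjusted p = 0.69 in H3.3K27M and 0.37 ± 0.16, adjusted p = 0.10 in Cbfa2t2_KO.

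The order of the eIF2B subunits therefore differed between the groups. Eif2b5 was the most abundant subunit transcript in all 4 libraries of H3.3K27M and Cbfa2t2_KO, whereas in both H3.3WT libraries Eif2b1 stood above Eif2b2 and Eif2b2 above Eif2b5. The most abundant subunit stood 8.45 and 7.99 times above Eif2b3 in H3.3K27M, 13.8 and 13.6 times in Cbfa2t2_KO, and 23.5 and 26.5 times in H3.3WT. The ratio of Eif2b1 to Eif2b5 was 0.607 and 0.676 in H3.3K27M, 0.519 and 0.462 in Cbfa2t2_KO, and 1.33 and 1.623 in H3.3WT. Summed over the 5 subunits, the level was 162 and 170.5 FPKM in H3.3K27M, 186 and 204 FPKM in Cbfa2t2_KO, and 249 and 249 FPKM in H3.3WT.

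**Figure D2:**
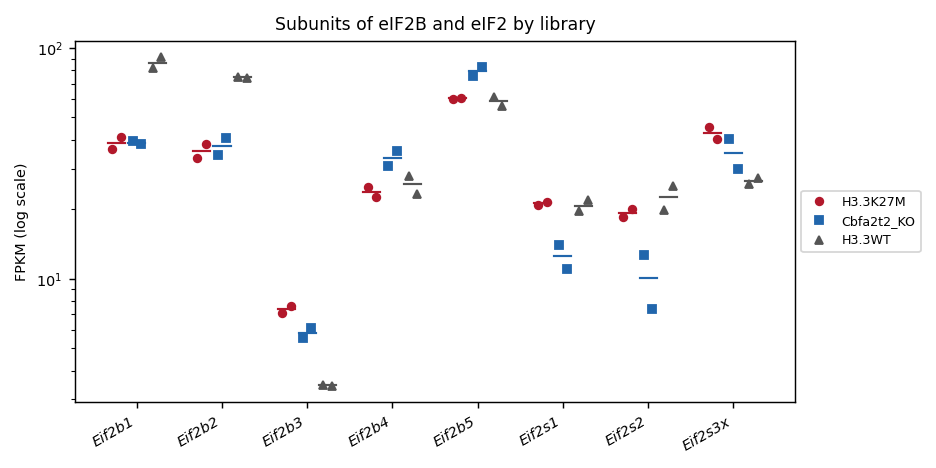
FPKM on a log axis of the 5 eIF2B subunits and 3 eIF2 subunits in each library, with a line at the group mean, for H3.3K27M (circles), Cbfa2t2_KO (squares) and H3.3WT (triangles). Eif2b1 and Eif2b2 have their highest values in H3.3WT and Eif2b3 its lowest, and Eif2s1 and Eif2s2 have their lowest values in Cbfa2t2_KO.

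Of the subunits of eIF2 itself, alpha and beta fell in Cbfa2t2_KO and gamma rose in H3.3K27M. Eif2s1, the alpha subunit that the stress kinases phosphorylate, stood at 20.9 and 21.5 FPKM in H3.3K27M, 14.04 and 11.04 FPKM in Cbfa2t2_KO, and 19.6 and 21.9 FPKM in H3.3WT. It fell in Cbfa2t2_KO against H3.3WT (-0.69 ± 0.17, adjusted p = 0.016) and was higher in H3.3K27M than in Cbfa2t2_KO (0.72 ± 0.17, adjusted p = 0.038), with a change of 0.03 ± 0.16, adjusted p = 0.90 between H3.3K27M and H3.3WT. Eif2s2, the beta subunit, stood at 18.5 and 20.1 FPKM in H3.3K27M, 12.7 and 7.42 FPKM in Cbfa2t2_KO, and 19.9 and 25.3 FPKM in H3.3WT. It too fell in Cbfa2t2_KO (-1.13 ± 0.24, adjusted p = 0.011) and was higher in H3.3K27M than in Cbfa2t2_KO (0.91 ± 0.23, adjusted p = 0.048). For both genes the Cbfa2t2_KO libraries were the lowest of the 6, and the second of them was the lower one. Without that library the fall against H3.3WT was not called (adjusted p = 0.10 for Eif2s1 and 0.059 for Eif2s2), nor was it without H3.3WT replicate 2 (0.075 and 0.052).

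Eif2s3x, the X-linked gene of the gamma subunit that binds GTP and tRNA, stood at 45.3 and 40.3 FPKM in H3.3K27M, 40.2 and 29.9 FPKM in Cbfa2t2_KO, and 25.7 and 27.4 FPKM in H3.3WT. Its rise was called in H3.3K27M (0.67 ± 0.16, adjusted p = 0.020) but not in Cbfa2t2_KO (0.38 ± 0.17, adjusted p = 0.12), and the direct difference was 0.29 ± 0.17, adjusted p = 0.30. The call was lost without H3.3K27M replicate 1 (adjusted p = 0.055), H3.3WT replicate 1 (0.13) or H3.3WT replicate 2 (0.098). The ratio of Eif2s3x to Eif2s2 was 2.45 and 2.01 in H3.3K27M, 3.16 and 4.03 in Cbfa2t2_KO, and 1.29 and 1.08 in H3.3WT, without overlap between groups. Eif2d, which can place initiator tRNA on the ribosome without eIF2, stood at 13.02 and 12.2 FPKM in H3.3K27M, 12.3 and 14.4 FPKM in Cbfa2t2_KO, and 7.92 and 5.39 FPKM in H3.3WT. It rose in both H3.3K27M (0.85 ± 0.21, adjusted p = 0.021) and Cbfa2t2_KO (0.92 ± 0.20, adjusted p = 0.011). The calls were lost without H3.3WT replicate 2 (adjusted p = 0.15 in H3.3K27M and 0.052 in Cbfa2t2_KO), H3.3K27M replicates 1 and 2 (0.065 and 0.070) or Cbfa2t2_KO replicate 2 (0.082). Eif2a, a separate initiator tRNA carrier and not the alpha subunit, did not pass in any comparison, with changes of 0.45 ± 0.21, adjusted p = 0.14 in H3.3K27M and -0.16 ± 0.23, adjusted p = 0.62 in Cbfa2t2_KO.

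Of the 4 kinases that phosphorylate eIF2 alpha, 1 passed the test in each line. Eif2ak1, the kinase HRI that responds to heme shortage and mitochondrial stress, was the most abundant of them at 8.54 and 7.48 FPKM in H3.3K27M, 10.2 and 9.21 FPKM in Cbfa2t2_KO, and 14.3 and 12.05 FPKM in H3.3WT. Of its exonic bases, 8.6% overlap Aimp2 on the opposite strand. The gene fell in H3.3K27M (-0.65 ± 0.18, adjusted p = 0.033), and its change in Cbfa2t2_KO was -0.40 ± 0.16, adjusted p = 0.090. The fall was not called without H3.3K27M replicate 2 (adjusted p = 0.11) or H3.3WT replicates 1 and 2 (0.20 and 0.096), nor after median-of-ratios scaling (0.073) or quantile normalization (0.087). Eif2ak3, the kinase PERK of the endoplasmic reticulum, stood at 5.94 and 4.18 FPKM in H3.3K27M, 5.15 and 4.94 FPKM in Cbfa2t2_KO, and 3.27 and 2.87 FPKM in H3.3WT. Its rise was called in Cbfa2t2_KO (0.57 ± 0.17, adjusted p = 0.035), with a change of 0.56 ± 0.21, adjusted p = 0.083 in H3.3K27M. The call was lost when any one library was left out (adjusted p = 0.10, 0.10, 0.070 and 0.15 without Cbfa2t2_KO replicates 1 and 2 and H3.3WT replicates 1 and 2) and in a fit of all 6 libraries (0.054). Eif2ak4, the amino acid sensor GCN2, stood at 4.56 and 3.05 FPKM in H3.3K27M, 4.52 and 3.78 FPKM in Cbfa2t2_KO, and 4.48 and 4.71 FPKM in H3.3WT, with overlapping groups and changes of -0.24 ± 0.21, adjusted p = 0.44 in H3.3K27M and -0.12 ± 0.18, adjusted p = 0.61 in Cbfa2t2_KO. Eif2ak2, the double-stranded RNA sensor PKR, stayed at or under 1.30 FPKM in every library.

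Of the 7 genes grouped under start site selection, 3 fell in H3.3K27M and 4 in Cbfa2t2_KO against H3.3WT, where 17.8% and 21.5% of all tested genes fell. None rose in either, where 8.42% and 13.1% of all tested genes rose. The group includes the subunit-joining factor Eif5b and the eIF1A-domain gene Eif1ad, which is among the falls in both lines. Eif1, which keeps the scanning ribosome from starting at wrong codons, stood at 129 and 159 FPKM in H3.3K27M, 213 and 190.0 FPKM in Cbfa2t2_KO, and 216 and 261 FPKM in H3.3WT. Its transcript fell in H3.3K27M (-0.73 ± 0.19, adjusted p = 0.027), and its change in Cbfa2t2_KO was -0.24 ± 0.15, adjusted p = 0.25. Its paralog Eif1b (ENSMUSG00000006941, chromosome 9, 120492232 to 120495330, forward strand) was lowest in the other line, at 57.9 and 63.02 FPKM in H3.3K27M, 38.8 and 38.96 FPKM in Cbfa2t2_KO, and 67.4 and 69.8 FPKM in H3.3WT. Eif1b fell in Cbfa2t2_KO (-0.80 ± 0.13, adjusted p = 0.0032) and was higher in H3.3K27M than in Cbfa2t2_KO (0.62 ± 0.14, adjusted p = 0.035), while its change in H3.3K27M against H3.3WT was -0.18 ± 0.16, adjusted p = 0.43. The ratio of Eif1 to Eif1b was 2.23 and 2.52 in H3.3K27M, 5.48 and 4.88 in Cbfa2t2_KO, and 3.21 and 3.75 in H3.3WT, so no groups overlapped. The fall of Eif1b in Cbfa2t2_KO was called under every alternative, and 12.7% of its exonic bases overlap an antisense gene in a library type whose strand is not stated. The fall of Eif1 in H3.3K27M was lost without H3.3K27M replicate 1 (adjusted p = 0.067), H3.3WT replicate 1 (0.080) or 2 (0.19), and after median-of-ratios scaling (0.088).

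Eif1a and Eif1ax both encode eIF1A, and their near-identical sequences make the split of reads between them uncertain. Eif1a stood at 24.3 and 27.3 FPKM in H3.3K27M, 26.6 and 17.5 FPKM in Cbfa2t2_KO, and 38.2 and 46.1 FPKM in H3.3WT. It fell in H3.3K27M (-0.68 ± 0.17, adjusted p = 0.023) and in Cbfa2t2_KO (-0.93 ± 0.21, adjusted p = 0.012), whereas Eif1ax, between 20.1 and 29.3 FPKM in all libraries, did not pass in either. Eif1ad, which encodes an eIF1A-domain protein and shares 15.3% of its exonic bases with Banf1 on the opposite strand, stood at 34.9 and 37.9 FPKM in H3.3K27M, 38.1 and 39.3 FPKM in Cbfa2t2_KO, and 59.4 and 58.3 FPKM in H3.3WT. Its level fell in H3.3K27M (-0.68 ± 0.16, adjusted p = 0.016) and in Cbfa2t2_KO (-0.59 ± 0.13, adjusted p = 0.011). The H3.3K27M falls of Eif1a and Eif1ad were not called after median-of-ratios scaling (adjusted p = 0.065 and 0.058), nor without H3.3WT replicate 1 (0.064 and 0.11) or 2 (0.17 and 0.10). For Eif1a the same held without H3.3K27M replicates 1 and 2 (0.065 and 0.053) and after quantile normalization (0.054). In Cbfa2t2_KO, Eif1a was not called without Cbfa2t2_KO replicate 2 (0.074) or H3.3WT replicate 2 (0.058), and Eif1ad not without Cbfa2t2_KO replicates 1 and 2 (0.052 and 0.055).

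Eif5 and Eif5b, the factors that trigger GTP hydrolysis on eIF2 and that join the ribosomal subunits, were higher in H3.3K27M than in Cbfa2t2_KO. Eif5 stood at 23.4 and 15.2 FPKM in H3.3K27M, 9.903 and 6.32 FPKM in Cbfa2t2_KO, and 12.9 and 15.2 FPKM in H3.3WT. It fell in Cbfa2t2_KO (-0.75 ± 0.22, adjusted p = 0.030), had a change of 0.41 ± 0.22, adjusted p = 0.21 in H3.3K27M, and in the direct comparison was higher in H3.3K27M (1.16 ± 0.25, adjusted p = 0.032), with a mean 2.38 times that of Cbfa2t2_KO. Its fall in Cbfa2t2_KO was lost without Cbfa2t2_KO replicate 2 (adjusted p = 0.16) or H3.3WT replicate 2 (0.13). Eif5b stood at 10.2 and 13.5 FPKM in H3.3K27M, 6.800 and 4.74 FPKM in Cbfa2t2_KO, and 7.75 and 11.1 FPKM in H3.3WT and was also higher in H3.3K27M than in Cbfa2t2_KO (0.93 ± 0.24, adjusted p = 0.046), while neither line passed against H3.3WT. Of its exonic bases, 16.8% overlap Rev1 on the opposite strand. Libraries of the same group differed widely for these genes, as in the 23.4 and 15.2 FPKM of Eif5 in H3.3K27M.

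The cap-binding side passed the test for an inhibitor, minor paralogs and the cofactor Eif4b, and the main eIF4F subunits did not pass. Of the 11 genes of eIF4F and its helpers, 2 rose and none fell in H3.3K27M, and none rose and 2 fell in Cbfa2t2_KO, while 1 of the 3 eIF4E inhibitors fell in Cbfa2t2_KO and none passed in H3.3K27M. Eif4ebp1 (ENSMUSG00000031490, chromosome 8, 27260329 to 27276674, forward strand) encodes 4E-BP1, which releases eIF4E when mTORC1 phosphorylates it. It stood at 170.4 and 209.7 FPKM in H3.3K27M, 104 and 122 FPKM in Cbfa2t2_KO, and 225 and 230.1 FPKM in H3.3WT. The gene fell in Cbfa2t2_KO (-1.01 ± 0.14, adjusted p = 0.0019), a call that held under every alternative, to 0.497 of the H3.3WT mean. Against Cbfa2t2_KO it was higher in H3.3K27M (0.74 ± 0.17, adjusted p = 0.034), and against H3.3WT its change in H3.3K27M was -0.26 ± 0.18, adjusted p = 0.31. Eif4ebp2, the paralog, had changes of 0.12 ± 0.19, adjusted p = 0.67 in H3.3K27M and 0.41 ± 0.15, adjusted p = 0.063 in Cbfa2t2_KO. The ratio of Eif4ebp1 to Eif4ebp2 was thus 2.08 and 3.22 in H3.3K27M, 1.14 and 1.39 in Cbfa2t2_KO, and 3.02 and 3.795 in H3.3WT. Eif4e, the cap-binding protein, stood at 12.01 and 18.2 FPKM in H3.3K27M, 13.7 and 11.1 FPKM in Cbfa2t2_KO, and 16.4 and 17.98 FPKM in H3.3WT, with changes of -0.20 ± 0.21, adjusted p = 0.52 in H3.3K27M and -0.44 ± 0.16, adjusted p = 0.067 in Cbfa2t2_KO.

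Eif4g3 (ENSMUSG00000028760, chromosome 4, 137993022 to 138208508, forward strand), a paralog of the scaffold eIF4G, stood at 8.99 and 5.99 FPKM in H3.3K27M, 5.69 and 4.12 FPKM in Cbfa2t2_KO, and 12.02 and 11.6 FPKM in H3.3WT. It fell in Cbfa2t2_KO (-1.13 ± 0.19, adjusted p = 0.0036) under every alternative, and its change in H3.3K27M was -0.61 ± 0.21, adjusted p = 0.065. The main scaffold Eif4g1, at 75.7 and 60.4 FPKM in H3.3K27M, 90.8 and 82.4 FPKM in Cbfa2t2_KO, and 75.1 and 77.5 FPKM in H3.3WT, had changes of -0.17 ± 0.18, adjusted p = 0.50 in H3.3K27M and 0.18 ± 0.13, adjusted p = 0.32 in Cbfa2t2_KO. Eif4e2, a cap-binding paralog linked to repression of translation, fell in Cbfa2t2_KO (-0.58 ± 0.16, adjusted p = 0.025), where both libraries, at 8.81 and 8.48 FPKM, were below the 14.4 and 12.5 FPKM of H3.3WT. That call was lost without Cbfa2t2_KO replicates 1 and 2 (adjusted p = 0.072 and 0.11) or H3.3WT replicate 1 (0.11), and after median-of-ratios scaling (0.057) or quantile normalization (0.064). The remaining helpers Eif4a3, Eif4e3, Eif4g2 and Eif4h did not pass in any of the comparisons. Eif4h, which like Eif4b stimulates the helicase, had Cbfa2t2_KO libraries on either side of H3.3WT, at 55.7 and 59.9 FPKM in H3.3K27M, 124 and 67.4 FPKM in Cbfa2t2_KO, and 79.3 and 78.8 FPKM in H3.3WT.

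**Figure D3:**
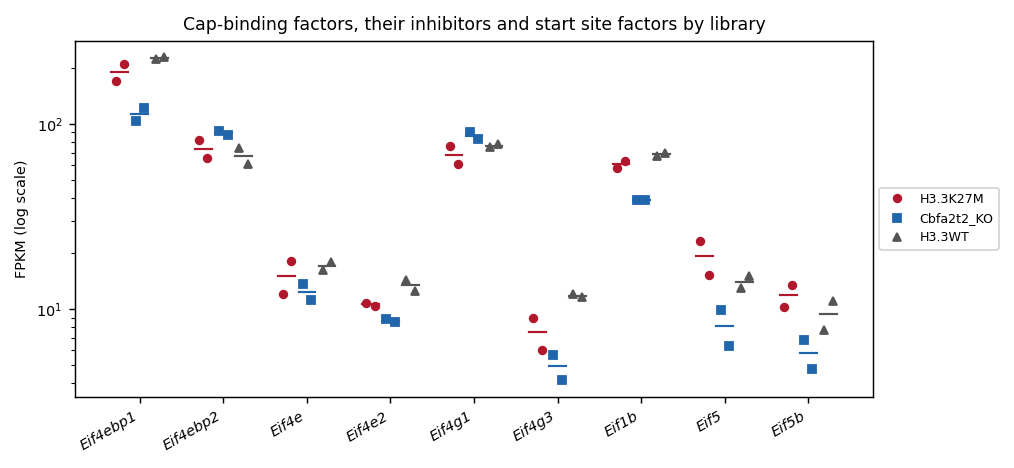
FPKM on a log axis of cap-binding factors, their inhibitors and start site factors in each library, with a line at the group mean, for H3.3K27M (circles), Cbfa2t2_KO (squares) and H3.3WT (triangles). Eif4ebp1 and Eif1b have their lowest values in Cbfa2t2_KO, and Eif5 and Eif5b have their lowest in Cbfa2t2_KO and their highest in H3.3K27M.

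Among the helicase genes the minor paralog moved and the major one did not pass. Eif4a2 stood at 23.4 and 27.7 FPKM in H3.3K27M, 14.6 and 11.3 FPKM in Cbfa2t2_KO, and 10.8 and 13.9 FPKM in H3.3WT. It rose in H3.3K27M against H3.3WT (1.00 ± 0.19, adjusted p = 0.0078) and was higher there than in Cbfa2t2_KO (0.94 ± 0.19, adjusted p = 0.029), and the 2 other groups overlapped. Without H3.3WT replicate 1 its rise against H3.3WT was not called (adjusted p = 0.066). Eif4a1, between 9.25 and 20.1 times as abundant within a library, stood at 242 and 257 FPKM in H3.3K27M, 220.4 and 227 FPKM in Cbfa2t2_KO, and 155 and 213 FPKM in H3.3WT, with changes of 0.45 ± 0.20, adjusted p = 0.13 in H3.3K27M and 0.30 ± 0.17, adjusted p = 0.21 in Cbfa2t2_KO. An annotated processed pseudogene, Eif4a-ps4, is listed at 240.4 and 262 FPKM in H3.3K27M, 217 and 223 FPKM in Cbfa2t2_KO, and 179 and 209 FPKM in H3.3WT, close to Eif4a1 itself, so the reads of Eif4a1 may be divided or counted in both. Eif4b, the cofactor that stimulates the helicase, stood at 293 and 242 FPKM in H3.3K27M, 193 and 174 FPKM in Cbfa2t2_KO, and 151 and 144 FPKM in H3.3WT. It rose in H3.3K27M (0.85 ± 0.18, adjusted p = 0.012) with all groups apart, and its change in Cbfa2t2_KO was 0.31 ± 0.13, adjusted p = 0.11. It lost its call without H3.3WT replicate 1 (adjusted p = 0.078) or 2 (0.10).

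Of the 14 tested genes of eIF3, 4 rose in H3.3K27M and none fell, and in Cbfa2t2_KO 4 rose and 1 fell. Among all tested genes 8.42% rose and 17.8% fell in H3.3K27M, and 13.1% rose and 21.5% fell in Cbfa2t2_KO. Eif3f and Eif3h, which form a pair within the complex, rose in both lines. Eif3f (ENSMUSG00000031029, chromosome 7, 108934417 to 108942951, forward strand) stood at 199.7 and 220.0 FPKM in H3.3K27M, 209.8 and 251 FPKM in Cbfa2t2_KO, and 121 and 115 FPKM in H3.3WT. It rose in H3.3K27M (0.82 ± 0.17, adjusted p = 0.010) and in Cbfa2t2_KO (0.95 ± 0.14, adjusted p = 0.0026), with both H3.3WT libraries below the other 4. The rise in Cbfa2t2_KO was called under every alternative, and that in H3.3K27M was not called without H3.3WT replicate 1 (adjusted p = 0.072) or 2 (0.095). Eif3h stood at 331 and 368 FPKM in H3.3K27M, 270.3 and 295 FPKM in Cbfa2t2_KO, and 193 and 172 FPKM in H3.3WT. It rose in H3.3K27M (0.93 ± 0.18, adjusted p = 0.0082) and in Cbfa2t2_KO (0.63 ± 0.14, adjusted p = 0.012). Those calls were lost without H3.3WT replicate 2 (0.092 in H3.3K27M and 0.086 in Cbfa2t2_KO), in H3.3K27M also without H3.3WT replicate 1 (0.055) and in Cbfa2t2_KO without its replicate 2 (0.071).

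Eif3e (ENSMUSG00000022336, chromosome 15, 43250058 to 43282719, reverse strand), a subunit known also as INT6, was higher in H3.3K27M than in both other groups. It stood at 22.4 and 26.7 FPKM in H3.3K27M, 15.1 and 9.89 FPKM in Cbfa2t2_KO, and 9.81 and 11.9 FPKM in H3.3WT. The rise against H3.3WT (1.11 ± 0.18, adjusted p = 0.0050) was called under every alternative, and the direct comparison with Cbfa2t2_KO also passed (0.94 ± 0.21, adjusted p = 0.036), while the change in Cbfa2t2_KO against H3.3WT was 0.17 ± 0.21, adjusted p = 0.57. Eif3m, which binds next to the pair of Eif3f and Eif3h, stood at 68.1 and 86.5 FPKM in H3.3K27M, 56.8 and 43.4 FPKM in Cbfa2t2_KO, and 45.8 and 49.8 FPKM in H3.3WT and rose in H3.3K27M (0.67 ± 0.18, adjusted p = 0.027). Its call was lost without H3.3K27M replicate 2 (adjusted p = 0.0999) or H3.3WT replicates 1 and 2 (0.16 and 0.11), and after the GC correction named above, where its log2 change was 0.31 (adjusted p = 0.099). An annotated pseudogene named Eif3s6-ps2, after an older symbol of Eif3e, is listed at 10.43 and 10.6 FPKM in H3.3K27M, 6.19 and 3.57 FPKM in Cbfa2t2_KO, and 4.75 and 6.27 FPKM in H3.3WT, and how reads were shared between them is not stated.

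In Cbfa2t2_KO the core subunit Eif3b and the small subunit Eif3k rose against H3.3WT. Eif3b stood at 233 and 219 FPKM in H3.3K27M, 246 and 272 FPKM in Cbfa2t2_KO, and 201 and 171 FPKM in H3.3WT (Cbfa2t2_KO change 0.48 ± 0.15, adjusted p = 0.038), and Eif3k stood at 101 and 128 FPKM in H3.3K27M, 110.2 and 129 FPKM in Cbfa2t2_KO, and 87.9 and 76.1 FPKM in H3.3WT (Cbfa2t2_KO change 0.54 ± 0.15, adjusted p = 0.026). Without Cbfa2t2_KO replicate 2 neither was called (adjusted p = 0.16 for Eif3b and 0.15 for Eif3k), nor without H3.3WT replicate 2 (0.23 and 0.14). Eif3b was also lost without Cbfa2t2_KO replicate 1 (0.069) or H3.3WT replicate 1 (0.059), after quantile normalization (0.068) and in a fit without a variance trend (0.058). Eif3j2, 1 of 2 near-identical genes of the loosely bound subunit eIF3j, fell in Cbfa2t2_KO (-0.73 ± 0.17, adjusted p = 0.016) at 9.46 and 13.2 FPKM in H3.3K27M, 7.45 and 6.796 FPKM in Cbfa2t2_KO, and 11.1 and 13.98 FPKM in H3.3WT. Its copy Eif3j1 had a change of -0.73 ± 0.25, adjusted p = 0.053 there, the split of reads between them is uncertain, and 19.0% of the exonic bases of Eif3j1 overlap Spg11 on the opposite strand. The fall of Eif3j2 was lost without Cbfa2t2_KO replicate 2 (0.088) or H3.3WT replicate 2 (0.090), and after the GC correction named above, where its log2 change was -0.33 (adjusted p = 0.074). Eif3a, the largest core subunit, stood at 97.5 and 81.5 FPKM in H3.3K27M, 71.03 and 47.4 FPKM in Cbfa2t2_KO, and 61.8 and 76.3 FPKM in H3.3WT, with changes of 0.37 ± 0.18, adjusted p = 0.16 in H3.3K27M and -0.24 ± 0.21, adjusted p = 0.39 in Cbfa2t2_KO. Eif3c, Eif3d, Eif3g, Eif3i and Eif3l lay between 74.3 and 319.7 FPKM and did not pass in any comparison, and 43.3% of the exonic bases of Eif3d overlap an annotated antisense gene. Summed over the 14 genes, eIF3 transcripts reached 2123 and 2211 FPKM in H3.3K27M, 1899 and 2008 FPKM in Cbfa2t2_KO, and 1731 and 1677 FPKM in H3.3WT.

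The ratio of Eef2 to Eef1a1 transcripts, not tested, was highest in Cbfa2t2_KO, and the elongation factors gave the highest levels of the set. Of 6 tested genes grouped with them, 1 rose in H3.3K27M, and 2 rose and 1 fell in Cbfa2t2_KO. The gene that fell was Eef1e1, described below as a synthetase scaffold. Eef1a1 stood at 6391 and 6828 FPKM in H3.3K27M, 4156 and 3891 FPKM in Cbfa2t2_KO, and 4211 and 3826 FPKM in H3.3WT. Both H3.3K27M libraries were above the other 4, yet with limma its changes of 0.72 ± 0.28, adjusted p = 0.090 against H3.3WT and 0.72 ± 0.23, adjusted p = 0.082 against Cbfa2t2_KO did not pass, and the change of Cbfa2t2_KO against H3.3WT was 0.0025 ± 0.19, adjusted p = 0.99. Eef1a1 belongs to a gene with many processed copies in mammalian genomes, so part of its reads may map to several places. Eef2 (ENSMUSG00000034994, chromosome 10, 81176631 to 81182498, forward strand) stood at 3347 and 2849.6 FPKM in H3.3K27M, 3508 and 4055 FPKM in Cbfa2t2_KO, and 2063 and 1841 FPKM in H3.3WT. It rose in Cbfa2t2_KO (0.95 ± 0.18, adjusted p = 0.0068), and its change in H3.3K27M was 0.66 ± 0.25, adjusted p = 0.083. Eef2 lost that call without H3.3WT replicate 1 (adjusted p = 0.067) or 2 (0.13). The ratio of Eef2 to Eef1a1 was 0.524 and 0.417 in H3.3K27M, 0.844 and 1.04 in Cbfa2t2_KO, and 0.490 and 0.481 in H3.3WT, so that Cbfa2t2_KO stood apart and the 2 other groups overlapped. Neither gene passed in the direct comparison with limma, where the difference of Eef2, H3.3K27M minus Cbfa2t2_KO, was -0.29 (adjusted p = 0.42).

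The exchange factor eEF1B, which recharges eEF1A with GTP, has a catalytic subunit from Eef1b2 and a structural one from Eef1g. Eef1b2 stood at 463 and 640.2 FPKM in H3.3K27M, 402 and 410.1 FPKM in Cbfa2t2_KO, and 353 and 316 FPKM in H3.3WT, and it rose in H3.3K27M (0.70 ± 0.22, adjusted p = 0.046). Eef1g stood at 868 and 1014 FPKM in H3.3K27M, 897 and 1023 FPKM in Cbfa2t2_KO, and 673 and 597 FPKM in H3.3WT, and it rose in Cbfa2t2_KO (0.59 ± 0.16, adjusted p = 0.024) with a change of 0.56 ± 0.21, adjusted p = 0.079 in H3.3K27M. All 4 libraries of the lines were above both H3.3WT libraries for each of the genes. The call of Eef1b2 was lost without H3.3K27M replicate 2 (adjusted p = 0.12) or H3.3WT replicates 1 and 2 (0.16 and 0.25), and after quantile normalization (0.076). That of Eef1g was lost without Cbfa2t2_KO replicate 2 (0.10) or H3.3WT replicates 1 and 2 (0.085 and 0.20), and after quantile normalization (0.12). Eef1e1, a scaffold protein of the aminoacyl-tRNA synthetase complex, fell in Cbfa2t2_KO (-0.58 ± 0.17, adjusted p = 0.032), at 8.49 and 8.15 FPKM there and 11.6 and 14.5 FPKM in H3.3WT. Without Cbfa2t2_KO replicates 1 and 2 or H3.3WT replicate 2 its adjusted p was 0.086, 0.13 and 0.17. The call was also lost after median-of-ratios scaling (0.059), quantile normalization (0.074), the GC correction (0.10) and in a fit of all 6 libraries (0.052), so it held in 5 of 12 alternatives. Eef1d, also of the exchange factor, did not pass in any comparison. Eef1a2, the form of eEF1A found in neurons and muscle, stood at 0.566 and 0.486 FPKM in H3.3K27M, 1.197 and 1.37 FPKM in Cbfa2t2_KO, and 0.644 and 0.574 FPKM in H3.3WT, with both Cbfa2t2_KO libraries above the other 4. Its mean over all libraries of a fit was under the filter, so it was not tested in the main fits. With no filter on low values it was called higher in Cbfa2t2_KO than in H3.3WT. Leaving out H3.3WT replicate 1 or 2 also brought its mean over the filter, and there it was not called. The summed level of the listed neuronal markers given above was also highest in Cbfa2t2_KO, and a link between the 2 was not tested.

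**Figure D4:**
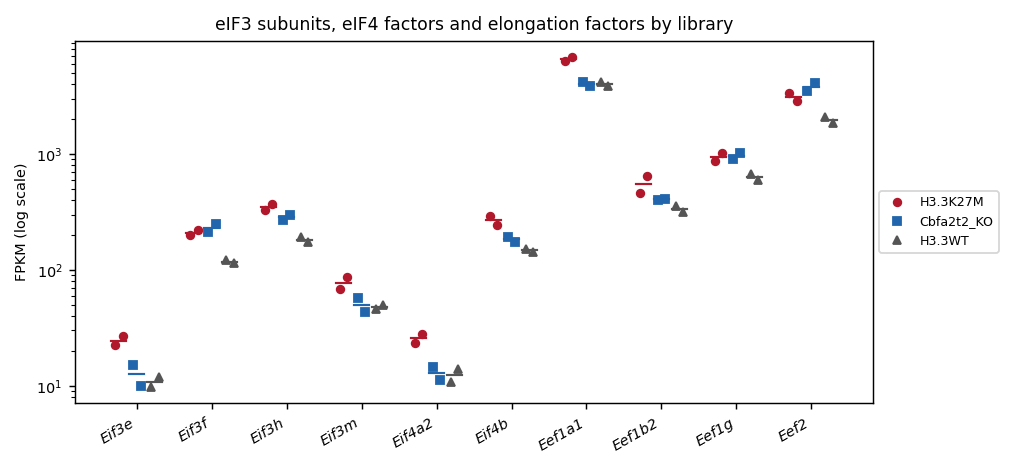
FPKM on a log axis of eIF3 subunits, eIF4 factors and elongation factors in each library, with a line at the group mean, for H3.3K27M (circles), Cbfa2t2_KO (squares) and H3.3WT (triangles). Eif3f, Eif3h, Eef1g and Eef2 have their lowest values in H3.3WT, and Eif3e, Eif4a2 and Eef1a1 are highest in H3.3K27M with the 2 other groups close to each other.

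Of the 5 tested genes that modify the elongation factors, 2 fell in H3.3K27M, and 2 rose and 2 fell in Cbfa2t2_KO. Eef1akmt4 (ENSMUSG00000115219, chromosome 16, 20611593 to 20619011, forward strand), a lysine methyltransferase of eEF1A, stood at 17.1 and 18.3 FPKM in H3.3K27M, 16.1 and 16.01 FPKM in Cbfa2t2_KO, and 36.9 and 41.4 FPKM in H3.3WT. The gene fell in H3.3K27M (-1.10 ± 0.16, adjusted p = 0.0035) and in Cbfa2t2_KO (-1.23 ± 0.14, adjusted p = 0.0011) under every alternative, with a direct difference of 0.13 ± 0.15, adjusted p = 0.59. Of its exonic bases, 30.7% are shared on the same strand with the read-through gene model Gm49333, which is in neither table, so its value may hold reads of that transcript, and 8.9% overlap Alg3 on the opposite strand. Eef1akmt1, another methyltransferase of eEF1A, stood at 33.2 and 43.8 FPKM in H3.3K27M, 36.8 and 42.5 FPKM in Cbfa2t2_KO, and 60.6 and 67.6 FPKM in H3.3WT. Its transcript fell in H3.3K27M (-0.73 ± 0.19, adjusted p = 0.023) and in Cbfa2t2_KO (-0.68 ± 0.14, adjusted p = 0.0097). The H3.3K27M call was lost without H3.3K27M replicate 1 (adjusted p = 0.068), H3.3WT replicates 1 and 2 (0.084 and 0.15) and after median-of-ratios scaling (0.071), and the Cbfa2t2_KO call without Cbfa2t2_KO replicate 1 (0.057) or H3.3WT replicate 2 (0.051).

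The kinase gene Eef2k, whose product phosphorylates and stops eEF2, stood at 6.17 and 4.79 FPKM in H3.3K27M, 5.59 and 5.499 FPKM in Cbfa2t2_KO, and 3.59 and 3.500 FPKM in H3.3WT, and it rose in Cbfa2t2_KO (0.53 ± 0.17, adjusted p = 0.042) with a change of 0.50 ± 0.20, adjusted p = 0.091 in H3.3K27M. Eef2kmt, a methyltransferase of eEF2, stood at 5.68 and 6.94 FPKM in H3.3K27M, 8.52 and 8.49 FPKM in Cbfa2t2_KO, and 5.82 and 5.53 FPKM in H3.3WT, and it too rose in Cbfa2t2_KO (0.51 ± 0.16, adjusted p = 0.042), with 17.6% of its exonic bases shared with Alg1 on the opposite strand. Both calls were lost when any one library was left out (adjusted p = 0.11, 0.12, 0.11 and 0.14 for Eef2k and 0.11, 0.13, 0.092 and 0.14 for Eef2kmt, without Cbfa2t2_KO replicates 1 and 2 and H3.3WT replicates 1 and 2), and in a fit of all 6 libraries (0.054 for Eef2k and 0.051 for Eef2kmt). Eef1akmt2 did not pass and Eef1akmt3 stayed under 1 FPKM. Eif5a, the hypusine-carrying factor that helps the ribosome through hard-to-join residues, stood at 490.3 and 564 FPKM in H3.3K27M, 556 and 639 FPKM in Cbfa2t2_KO, and 666 and 706 FPKM in H3.3WT. Both H3.3WT libraries were above the other 4, and the 2 other groups overlapped. Its changes were -0.38 ± 0.20, adjusted p = 0.18 in H3.3K27M and -0.20 ± 0.15, adjusted p = 0.33 in Cbfa2t2_KO. Eif6, which keeps the large ribosomal subunit from joining too early, stood at 108 and 129 FPKM in H3.3K27M, 125 and 146 FPKM in Cbfa2t2_KO, and 165 and 145 FPKM in H3.3WT, with changes of -0.39 ± 0.18, adjusted p = 0.14 in H3.3K27M and -0.19 ± 0.15, adjusted p = 0.33 in Cbfa2t2_KO. Eif5a2, the tissue-restricted paralog of Eif5a, stood at 0.923 and 1.09 FPKM in H3.3K27M, 1.09 and 0.772 FPKM in Cbfa2t2_KO, and 1.45 and 2.97 FPKM in H3.3WT and did not pass.

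The 8 genes higher in H3.3K27M than in Cbfa2t2_KO were Eif5, Eif3e, Eif4a2, Eif5b, Eif2s2, Eif4ebp1, Eif2s1 and Eif1b, which act in start site selection and subunit joining, in eIF2, eIF3 and eIF4F and as inhibitor of eIF4E. Their log2 differences ran from 0.62 to 1.16. All 8 were lost without Cbfa2t2_KO replicate 2, with adjusted p from 0.16 for Eif4ebp1 to 0.29 for Eif2s2, when 19 genes of all those tested were higher and 10 lower. Without H3.3K27M replicate 2, all but Eif5 were lost (adjusted p from 0.11 for Eif1b to 0.17 for Eif5b), and without H3.3K27M replicate 1 Eif2s1, Eif2s2, Eif5 and Eif5b were (0.065, 0.081, 0.081 and 0.050). Without Cbfa2t2_KO replicate 1, Eif1b, Eif2s1, Eif4a2, Eif4ebp1 and Eif5b were lost (0.11, 0.063, 0.056, 0.14 and 0.066). In a fit of the 4 libraries of the lines, Eif1b, Eif2s1, Eif2s2, Eif4ebp1 and Eif5b were lost (0.056, 0.055, 0.060, 0.054 and 0.051). With no filter on low values Eif2s2 and Eif5b were lost (0.059 and 0.055), and Eif2s2 also with a pseudocount of 0.1 (0.054) or without a variance trend (0.053).

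The direct difference moved with base composition. Across the 62 tested genes it had a Spearman correlation of -0.68 with the GC content of the longest transcript, and across 11589 genes of all kinds one of -0.46. Genes in a library share its preparation and depth, so these correlations are descriptions. Against H3.3WT the correlation across the 63 genes was -0.17 in H3.3K27M and 0.34 in Cbfa2t2_KO. Across all tested genes with an annotation it was -0.29 in H3.3K27M and 0.05 in Cbfa2t2_KO. A correction of every library for its dependence on GC content, transcript length and exon number, chosen after seeing the data, raised the count of higher genes in the direct comparison to 14 and kept 7 of the 8, losing Eif5b (adjusted p = 0.081). Calls among all genes increased with it, to 779 higher and 745 lower in place of 362 and 543.

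**Figure D5:**
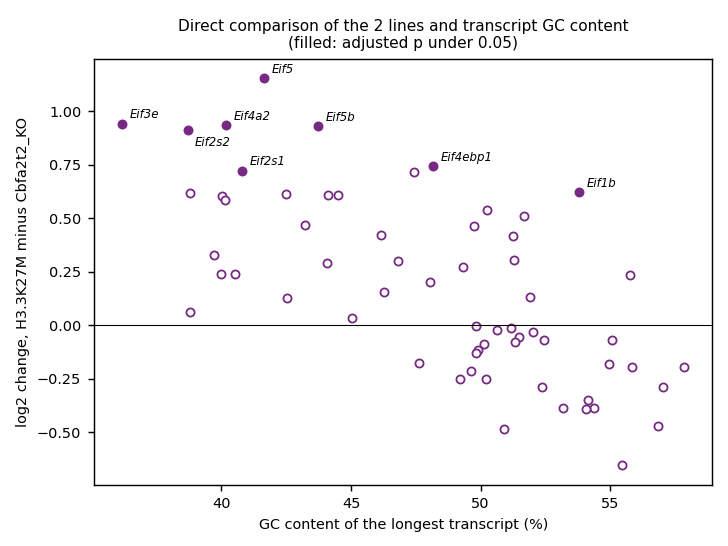
Log2 difference of FPKM + 1 between H3.3K27M and Cbfa2t2_KO for each tested translation factor gene against the GC content of its longest transcript in percent, with genes of an adjusted p under 0.05 filled and named. The 8 named genes lie above 0.6, and most genes above 50% GC lie below 0.

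Partner genes of the factors, a list of 78 genes in both tables covering signalling, poly(A)-binding, recycling and factor modification, were called lower about as often as all genes. In H3.3K27M 15 of 76 tested fell (19.7%, against 17.8% of all genes) and 5 rose (6.58%, against 8.42%). In Cbfa2t2_KO 18 of 77 fell (23.4%, against 21.5% of all genes) and 3 rose (3.90%, against 13.1%). In the direct comparison 2 of 76 were higher in H3.3K27M (2.63%, against 3.12% of all genes) and 1 lower (1.32%, against 4.68%). Their median log2 change was -0.22 in H3.3K27M and -0.28 in Cbfa2t2_KO against H3.3WT, where all genes had medians of -0.12 and -0.11 of all genes. Pelo, which rescues stalled ribosomes, stood at 14.1 and 21.6 FPKM in H3.3K27M, 21.2 and 25.2 FPKM in Cbfa2t2_KO, and 60.1 and 64.9 FPKM in H3.3WT. It fell in H3.3K27M (-1.78 ± 0.21, adjusted p = 0.0017) and in Cbfa2t2_KO (-1.40 ± 0.15, adjusted p = 0.00090).

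Both regulatory subunits that return eIF2 alpha to its unphosphorylated form were lower in the lines. Ppp1r15a, the stress-induced subunit GADD34, stood at 14.3 and 17.2 FPKM in H3.3K27M, 15.4 and 17.4 FPKM in Cbfa2t2_KO, and 35.2 and 38.6 FPKM in H3.3WT. Its level fell in H3.3K27M (-1.18 ± 0.17, adjusted p = 0.0032) and in Cbfa2t2_KO (-1.12 ± 0.14, adjusted p = 0.0016). Ppp1r15b, the constitutive subunit, stood at 27.3 and 22.7 FPKM in H3.3K27M, 19.04 and 16.7 FPKM in Cbfa2t2_KO, and 44.96 and 44.6 FPKM in H3.3WT and fell in H3.3K27M (-0.82 ± 0.17, adjusted p = 0.010) and in Cbfa2t2_KO (-1.28 ± 0.14, adjusted p = 0.00099). The H3.3K27M call of Ppp1r15b was lost without H3.3WT replicates 1 and 2 (adjusted p = 0.069 and 0.071) and after the GC correction, where its log2 change was -0.29 (0.099). The diphthamide enzymes Dph1 and Dph2, which modify eEF2, fell in both lines as well. For Dph1 the changes were -0.91 ± 0.19, adjusted p = 0.0099 in H3.3K27M and -1.14 ± 0.18, adjusted p = 0.0031 in Cbfa2t2_KO, and for Dph2 -1.35 ± 0.17, adjusted p = 0.0021 in H3.3K27M and -1.05 ± 0.15, adjusted p = 0.0023 in Cbfa2t2_KO. The H3.3K27M call of Dph1 was lost without H3.3K27M replicate 2 (adjusted p = 0.053) or H3.3WT replicate 1 (0.087).

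Among the partners that rose, Pabpc1, the main cytoplasmic poly(A)-binding protein, was higher in H3.3K27M than in both other groups, at 234 and 207 FPKM in H3.3K27M, 114 and 94.9 FPKM in Cbfa2t2_KO, and 87.8 and 72.2 FPKM in H3.3WT. It rose against H3.3WT (1.46 ± 0.18, adjusted p = 0.0019) and was higher than in Cbfa2t2_KO (1.07 ± 0.17, adjusted p = 0.014), a difference lost without Cbfa2t2_KO replicate 2 (adjusted p = 0.14). Ddit4, an inhibitor of mTORC1, stood at 534 and 517 FPKM in H3.3K27M, 489 and 569 FPKM in Cbfa2t2_KO, and 241 and 227 FPKM in H3.3WT and rose in H3.3K27M (1.17 ± 0.18, adjusted p = 0.0039) and in Cbfa2t2_KO (1.17 ± 0.15, adjusted p = 0.0015). Pabpc4 rose in both lines, by 0.90 ± 0.16, adjusted p = 0.0057 in H3.3K27M and 0.64 ± 0.15, adjusted p = 0.014 in Cbfa2t2_KO. Pdcd4, an inhibitor of eIF4A, stood at 15.1 and 15.8 FPKM in H3.3K27M, 15.8 and 12.7 FPKM in Cbfa2t2_KO, and 8.89 and 10.2 FPKM in H3.3WT and rose in H3.3K27M (0.64 ± 0.17, adjusted p = 0.029) and in Cbfa2t2_KO (0.53 ± 0.17, adjusted p = 0.046), and Impact, which restrains GCN2, rose in H3.3K27M (0.91 ± 0.26, adjusted p = 0.032). The calls of these 3 were lost in part without 1 library: that of Pabpc4 in Cbfa2t2_KO without Cbfa2t2_KO replicate 1 (adjusted p = 0.080) or H3.3WT replicate 2 (0.053), that of Pabpc4 in H3.3K27M without H3.3WT replicate 2 (0.052), those of Pdcd4 in both lines when any one library was left out (from 0.055 to 0.17 in H3.3K27M and from 0.070 to 0.20 in Cbfa2t2_KO) and that of Impact without H3.3K27M replicates 1 and 2 (0.082 and 0.13) or H3.3WT replicate 1 (0.20). After the GC correction the log2 change of Pdcd4 in H3.3K27M was 0.32 (adjusted p = 0.082). Mknk2, a kinase of eIF4E, stood at 27.6 and 23.3 FPKM in H3.3K27M, 42.1 and 47.6 FPKM in Cbfa2t2_KO, and 33.1 and 34.1 FPKM in H3.3WT and was lower in H3.3K27M than in Cbfa2t2_KO (-0.80 ± 0.15, adjusted p = 0.024). Abce1, which splits ribosomes after termination, was higher in H3.3K27M than in Cbfa2t2_KO (0.94 ± 0.22, adjusted p = 0.038). Both differences were lost without Cbfa2t2_KO replicate 2 (0.19 for Mknk2 and 0.25 for Abce1) or H3.3K27M replicate 2 (0.088 and 0.11), that of Mknk2 also without Cbfa2t2_KO replicate 1 (0.063) and that of Abce1 without H3.3K27M replicate 1 (0.077).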

How the data were processed

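Poly(A) RNA-seq of 6 libraries was deposited by the authors as FPKM per gene in 2 tables, 1 for Cbfa2t2_KO with H3.3WT (14431 genes) and 1 for H3.3K27M with H3.3WT (14318 genes), and the H3.3WT values are identical for all 14082 shared genes. The build GRCm38 and the tools HISAT2, StringTie, Trim Galore and DESeq, without versions, are named per the submitters' processing notes; the strand and annotation are not given in the sources used here. The columns of H3.3K27M carry the letter M alone and were assigned on it. In each table every gene reaches 0.5 FPKM in at least 1 library. Values under 1 FPKM were whole multiples of a step in a share of at most 0.225 to 0.236 (tolerance 0.1), so no reads were recovered and the depth is unknown.

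All genes that averaged 1 FPKM or more were tested with limma 3.58.1 (R 4.3.3) on log2(FPKM + 1) (eBayes with trend, Benjamini-Hochberg adjustment over all genes, threshold 0.05). Comparisons with H3.3WT used the 4 libraries concerned, and the direct comparison of the lines used all 6. An exact permutation test of 2 against 2 libraries cannot go below 0.333. This log scale understates changes of low genes. The procedure was tested on simulated data. Gene positions, GC content and overlaps came from GENCODE vM21 and promoter windows from RefSeq (GRCm38.p6). Figures were drawn with matplotlib 3.10.9.

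The members, the role and partner lists and the named genes were chosen with earlier results of these data known. Named were, per comparison, the 8 largest rises and 8 largest falls (5 and 5 between the lines) among called members with groups that did not overlap, then Eif2s1, Eif2b5, Eif2ak3, Eif2ak4, Eif4a1, Eif4a2, Eif4e, Eif4g1, Eif4ebp1, Eif3a, Eif5a, Eif6, Eef1a1, Eef1a2, Eef2 and Eef2k, and the 3 largest rises and falls of partners. Other members named in the text were chosen after their values were seen. Alternatives were a pseudocount of 0.1, no filter or a filter of 5 FPKM, scaling by the median of ratios, eBayes without trend, quantile normalization, the other set of libraries in the fit, leaving out each replicate, and a correction for GC content, transcript length and exon number.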

Additional observations from a re-analysis of the deposited data

How the results depend on the processing

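No member called in a comparison changed sign under any alternative, but many calls rested on single libraries. Leaving out 1 library gave 2 to 11 members higher and 3 to 6 lower in H3.3K27M against H3.3WT, 1 to 6 higher and 7 to 16 lower in Cbfa2t2_KO against H3.3WT, and 0 to 4 higher in H3.3K27M against Cbfa2t2_KO. Of the partners, it gave 3 to 3 higher and 5 to 14 lower in H3.3K27M, 1 to 2 higher and 6 to 14 lower in Cbfa2t2_KO, and 0 to 2 higher and 0 to 4 lower in the direct comparison. The count of 0 members lower in H3.3K27M than in Cbfa2t2_KO was 0 there too. Calls among all genes fell as well. They were 295 to 811 higher and 712 to 1979 lower in H3.3K27M against H3.3WT, where all libraries gave 979 and 2070, and 710 to 1170 higher and 1205 to 1868 lower in Cbfa2t2_KO, where all gave 1528 and 2500. In the direct comparison they were 19 to 266 higher and 10 to 520 lower, where all gave 362 and 543. Median-of-ratios scaling gave 3 members and 9 partners lower in H3.3K27M, and 6 partners higher in Cbfa2t2_KO, and quantile normalization gave 7 partners higher in Cbfa2t2_KO. Among all genes, the scaling gave 1424 lower in H3.3K27M and 2091 higher in Cbfa2t2_KO, and quantile normalization 2025 higher in Cbfa2t2_KO. A fit of the 4 libraries of the lines gave 3 members, and 215 of all genes, higher in H3.3K27M than in Cbfa2t2_KO. The correction for GC content, transcript length and exon number, chosen after seeing the data, gave 17 members higher in H3.3K27M and 6 partners higher in Cbfa2t2_KO against H3.3WT, and 14 members and 4 partners higher in H3.3K27M than in Cbfa2t2_KO. Calls among all genes increased under it too, to 1707 higher in H3.3K27M and 2367 higher in Cbfa2t2_KO against H3.3WT, and 779 higher in the direct comparison. The cause of these shifts was not tested.

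Of the values of named genes under the alternatives, 924 kept their direction and their side of the threshold, 123 lost and 21 gained a call, and 26 changed sign, all for genes not called. In H3.3K27M against H3.3WT these were Eif2s1 (-0.053) and Eif4g1 (0.054) after the GC correction and, when 1 library was left out, Eif4e (-0.48 to 0.081), Eif2s1 (-0.043 to 0.11) and Eif2b5 (-0.0201 to 0.10). In Cbfa2t2_KO against H3.3WT they were Eif2ak4 (0.012) and Eef1a1 (-0.19) after quantile normalization and, when 1 library was left out, Eif4a2 (-0.11 to 0.24), Eef1a1 (-0.067 to 0.072) and Eif3a (-0.53 to 0.047). Between H3.3K27M and Cbfa2t2_KO, Eif2ak3 was 0.0102 and Eef2k 0.0017 after median-of-ratios scaling, and 0.0101 and 0.012 after quantile normalization. After the GC correction, the values were 0.14 for Eif2ak3, 0.028 for Eif2ak4, -0.026 for Eif4e, 0.0021 for Eif6 and 0.12 for Eef2k. Leaving out 1 library gave -0.22 to 0.20 for Eif2ak3, -0.34 to 0.11 for Eif2ak4, -0.038 to 0.52 for Eif4e and -0.18 to 0.13 for Eef2k. Leaving out a library leaves an arm with 1, which is assumed to vary like the others.

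No paired analysis was possible because replicate numbers were given in record order and the H3.3K27M columns carry no sample names. With 2 libraries per group and no counts, the sampling error of low genes is unknown, and a change that did not pass is not shown to be absent.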

Other observations

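Processed pseudogenes of the factors in both tables were outside the gene set. Eif1-ps1 was listed at 1.25 and 1.07 FPKM in H3.3K27M, 1.64 and 1.07 FPKM in Cbfa2t2_KO, and 2.99 and 3.601 FPKM in H3.3WT. Eif5al3-ps was listed at 0.738 and 0.993 FPKM in H3.3K27M, 0.786 and 1.19 FPKM in Cbfa2t2_KO, and 0.948 and 1.21 FPKM in H3.3WT. The H3.3WT libraries held the highest values of Eif1-ps1, as they did of Eif1 itself.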
